A study of Mus musculus with 4 samples.

Results

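The cell cycle module examined here consisted of 51 listed genes of the 32286 in the deposited matrices. Of these, 35 act mainly in G2 and mitosis (G2/M members) and 16 act in DNA replication and the start of S phase (S members). They were followed in 6 lung lineages of 2 wild-type (WT) and 2 Tubb3-/- mice. The Tubb3-/- mice carried on both alleles a Tubb3-Cre knockin that disrupts *Tubb3*, the gene of β-III tubulin, so that they have Cre in addition to lacking the tubulin. The mice were littermates aged 8 to 11 weeks. The study used mice of both sexes across its experiments, and the sex of each of these mice is not stated. Each received intratracheal bleomycin at 0.8 U/kg, a lung injury that leads to fibrosis, and lungs were collected on day 14, so no uninjured group enters any comparison. Every mouse gave a whole-cell library (live cells depleted of TER-119+ red cells) and a mural cell-enriched library (further depleted of CD31+, CD45+ and EpCAM+ cells, with MCAM+PDGFRα- and MCAM- cells mixed 1:1). The 8 libraries were tagged with oligonucleotides and pooled by kind into 2 pools that each hold both genotypes.

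Cells divide by copying their DNA in S phase and parting the copies in mitosis. S-phase genes such as those of the MCM helicase are driven at the G1/S border by E2F factors, whereas G2/M genes such as those of the mitotic cyclins and kinases are switched on later through the MuvB complex, B-MYB and FOXM1. After bleomycin injury, lung endothelial cells, fibroblasts, epithelial cells and macrophages are all known to divide during repair. RNA of the G2/M genes is scarce outside dividing cells, while several S-phase genes, *Pcna* among them, also serve DNA repair and are transcribed at a low level in resting cells.

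The promoters of the members are shown first because the module is defined by timed transcription. Of the 51 members, 43 had an entry in the RefSeq promoter table (build GRCm38.p6), with 47 promoters in all, and the 250 bases before each start were searched on both strands. The cell cycle homology region, searched as TTTGAA or TTCGAA, is the element that MuvB reads in G2/M genes. It was found in 38.7% of 31 promoters of G2/M members and 25% of 16 promoters of S members, against 17.1% of 32851 promoters of all genes. The CCAAT box, which NF-Y binds, was found in 74.2% and 81.2% of them against 33.8%. The E2F site, searched as TTTCCCGC or TTTGGCGC, was found in 0% and 25% against 1.3%. A CCAAT box together with a cell cycle homology region was found in 35.5% and 25% against 6.02%. Matches of different motifs that share letters were counted for each, and a match describes the sequence only. Aurkb, Ccna2, Foxm1, Gins2, Kif20a, Mcm4, Pbk and Tpx2 had no entry.
Below are the last 120 bases before the start of *Mki67* (chr7:135716380-135716499, minus strand), *Top2a* (chr11:99024190-99024309, minus strand) and *Ccnb2* (chr9:70421555-70421674, minus strand), 3 G2/M members that are described below, and of *Mcm6* (chr1:128359706-128359825, minus strand), an S member with E2F sites. They are read 5′ to 3′ on the gene's strand, and capitals mark a match to any of these motifs on either strand.
Mki67: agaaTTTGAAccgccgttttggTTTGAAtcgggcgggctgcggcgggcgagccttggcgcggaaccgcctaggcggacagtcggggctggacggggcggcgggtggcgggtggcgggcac
Top2a: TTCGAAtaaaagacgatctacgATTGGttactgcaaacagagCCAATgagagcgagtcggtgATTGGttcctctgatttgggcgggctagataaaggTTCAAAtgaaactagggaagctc
Ccnb2: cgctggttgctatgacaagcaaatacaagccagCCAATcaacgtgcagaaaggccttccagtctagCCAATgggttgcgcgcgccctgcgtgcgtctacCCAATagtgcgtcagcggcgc
Mcm6: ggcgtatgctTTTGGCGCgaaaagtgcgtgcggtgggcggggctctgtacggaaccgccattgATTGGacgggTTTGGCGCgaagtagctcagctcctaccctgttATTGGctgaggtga
The *Mki67* stretch held 2 cell cycle homology regions, the *Top2a* stretch 2 of them and 3 CCAAT boxes, the *Ccnb2* stretch 3 CCAAT boxes, and the *Mcm6* stretch 2 E2F sites and 2 CCAAT boxes. The 250 bases searched held more matches than these stretches. There *Mki67* had 2 cell cycle homology regions and 3 CCAAT boxes, *Top2a* 4 and 6, and *Ccnb2* 1 and 3. *Mcm6* had the same counts as in its stretch.

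The libraries held 41462258 to 95036340 unique molecular identifiers (UMIs) of genes in 3202 to 5051 cells each, with a median of 9186 to 16299 UMIs per cell. *Tubb3*, which checks the labels, stood at 1.93 and 0.868 CPM (UMIs of the gene per 1000000 gene UMIs) in WT whole-cell libraries and at 0.262 and 0.321 CPM in Tubb3-/- ones. In the enriched libraries it stood at 5.49 and 3.67 CPM against 0.789 and 0.680 CPM. Of 30058 cells kept, 15587 had UMIs of the marker of a single lineage and entered the comparison: 4383 immune (*Ptprc*), 2276 endothelial (*Cdh5*), 321 epithelial (*Epcam*), 322 mesothelial (*Msln*), 4500 mural (*Higd1b* or *Myh11*) and 3785 fibroblast (*Pdgfra*) cells. The rule left out 13712 cells that matched several markers, which were deeper (median 16969.5 UMIs against 10641) and held 472 of the 767 cells with both *Mki67* and *Top2a*. The 5 further markers of each lineage were highest in that lineage, except *Dcn*, whose level in fibroblasts was 0.859 times that in mesothelial cells, and *Lum* in Tubb3-/- mice, at 232 CPM in mural cells against 197 CPM in fibroblasts. Cells called mural by the rule nevertheless carried much fibroblast RNA. The fibroblast markers (*Col1a1*, *Col1a2*, *Dcn*, *Lum*, *Tcf21*) summed to 2638 and 2304 CPM there in WT mice and 4628 and 4045 CPM in Tubb3-/- mice, so they moved with genotype, and their part in the mural results was not tested. The pools shared 59 cell barcodes, and no barcode was shared between libraries of a pool.

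The first question was in which lineages the module is expressed. In WT mice the summed level of the G2/M members was highest in immune cells, at 442 and 454 CPM in the 2 mice. Endothelial cells followed at 193 and 181 CPM, and mesothelial cells at 171 and 65.0 CPM. Fibroblasts stood at 121 and 87.3 CPM, mural cells at 79.5 and 82.5 CPM and epithelial cells at 79.2 and 53.2 CPM. Immune cells lay above every other lineage in both WT mice, whereas the mesothelial range overlapped those of fibroblast, mural and epithelial cells. In Tubb3-/- mice the order was another one. Endothelial cells led at 859 and 647 CPM, above immune cells at 475 and 434 CPM, and mural cells stood at 307 and 173 CPM. Fibroblasts stood at 225 and 177 CPM, within the mural range. Mesothelial cells at 944 and 141 CPM and epithelial cells at 54.9 and 269.9 CPM differed so much between mice that they have no place in the order. That spread and the order of the lineages depended on how cells were assigned and which libraries entered. With cells assigned by their leading marker, Tubb3-/- mice gave 438 and 411 CPM in mesothelial and 293 and 314 CPM in epithelial cells, and WT epithelial cells stood at 282 and 156 CPM, above fibroblasts at 154 and 117 CPM. WT endothelial cells, at 163 and 196 CPM, then lay below mesothelial cells (293 CPM) and epithelial cells in replicate 1. With 2 or more marker UMIs required, WT endothelial cells stood at 199 and 109 CPM. In the whole-cell libraries alone WT fibroblasts were lowest, at 46.5 and 44.0 CPM, below mural cells at 59.5 and 123 CPM. With the leading marker and in the whole-cell libraries immune cells were highest in both WT mice and endothelial cells in both Tubb3-/- mice, but not in the enriched libraries alone. There WT immune cells stood at 148 and 116 CPM, in replicate 1 below mesothelial cells (195 CPM) and fibroblasts (150.3 CPM), and WT endothelial cells at 57.0 and 69.8 CPM, below mural cells at 81.5 and 77.0 CPM. Endothelial cells of Tubb3-/- mice stood at 301 and 588 CPM there, in replicate 1 below mesothelial (1181 CPM), immune (609 CPM) and mural cells (311 CPM). These sums come from all cells of a lineage, so a larger share of dividing cells and more of this RNA per dividing cell cannot be told apart from them.

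**Figure D1:**
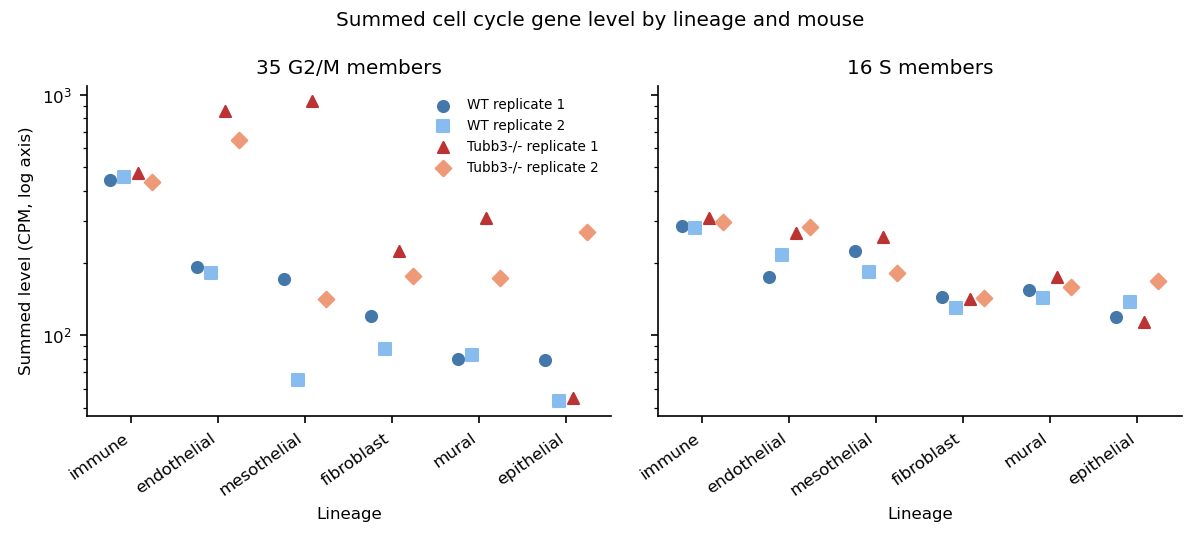
Summed level of the 35 G2/M members (left) and the 16 S members (right) in CPM on a log axis, by lineage, with a point for each of the 4 mice. G2/M levels of endothelial cells lie at 193 and 181 CPM in WT and 859 and 647 CPM in Tubb3-/- mice, whereas S levels stay between 113 and 307 CPM in all lineages and mice.

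The S members varied less. Their sum was 285, 279, 307 and 295 CPM in immune cells of WT replicates 1 and 2 and Tubb3-/- replicates 1 and 2. In endothelial cells it was 174, 217, 267 and 283 CPM, and in mural cells 154, 143, 175 and 159 CPM. In these 3 lineages both Tubb3-/- mice lay above both WT ones. In fibroblasts it was 145, 130, 141 and 144 CPM, and the genotypes overlapped. Member by member, immune cells of WT mice held the highest mean level of 31 of the 35 G2/M members and of 10 of the 16 S members. The exceptions among G2/M members were *Cenpf*, a kinetochore protein, and *Pbk*, a mitotic kinase, highest in endothelial cells, *Ect2*, an exchange factor of cytokinesis, highest in epithelial cells, and *Anln*, the actin-binding anillin, highest in mural cells. In Tubb3-/- mice endothelial cells held the highest mean of 24 G2/M and 5 S members. Mesothelial cells held that of 7 G2/M members (*Anln*, *Ccnb1*, *Ect2*, *Kif20a*, *Kif2c*, *Mad2l1* and *Plk1*). Their G2/M sums of 944 and 141 CPM differed widely between replicates 1 and 2. Immune cells held the highest mean of *Bub1b*, *Cenpa*, *Kif23* and *Ndc80*, as in WT mice, and of 9 S members. Among these S members, *E2f1* was highest in mesothelial and *Gins2* in endothelial cells of WT mice.

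Genotype was compared lineage by lineage with edgeR's quasi-likelihood test on the UMI sums of the 4 mice. It called no member in any lineage at an adjusted p under 0.05, and it called 0% of all genes in immune, endothelial, epithelial, mural and fibroblast cells and 0.231% in mesothelial cells. DESeq2, run as an alternative, called 22 members in endothelial, 14 in mural, 5 in fibroblast and 0 in immune, epithelial and mesothelial cells. Over all genes it called 0.959% in endothelial, 1.14% in mural, 3.42% in fibroblast, 0.49% in immune, 0.0288% in epithelial and 0.378% in mesothelial cells. With a replicate block, which pairs same-numbered mice although no label ties them, edgeR called 4 members in endothelial and 22 in mural cells. It called 19 in fibroblast, 5 in mesothelial and 0 in immune and epithelial cells. Over all genes the block gave 0.11%, 3.99%, 10.6%, 2.89%, 0.163% and 0%, in that order. Leaving out WT replicate 1 gave edgeR calls of 13 members in endothelial, 10 in mural, 12 in fibroblast and 14 in mesothelial cells, while 1.16%, 2.94%, 6.43% and 2.92% of all genes were called. Leaving out WT replicate 2 gave 5, 17, 2 and 2 members, beside 0.438%, 3.66%, 3.41% and 1.23%. Without Tubb3-/- replicate 1 the counts were 9, 0, 0 and 0, beside 0.225%, 0%, 0% and 0.623%. Without Tubb3-/- replicate 2 they were 21, 9, 0 and 21, beside 0.828%, 0.199%, 0% and 3.33%. In each of these fits the lone mouse is assumed to vary like the others. In mesothelial cells the filter on low counts let 36 members through in the fits without either WT mouse or without Tubb3-/- replicate 2, against 15 with all mice. These are the fits that keep Tubb3-/- replicate 1, which had a G2/M sum of 944 CPM against 65.0 to 171 CPM in the other mice, and with 1 mouse in a group a member can pass the filter through that mouse alone, so the mesothelial counts of 14, 2 and 21 are no support for a difference. Levels below are therefore given as higher or lower, with the values of each mouse, and not as changes.

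In endothelial cells 47 of the 51 members were higher in each Tubb3-/- mouse than in either WT mouse, against 22.5% of all genes tested in that direction, and none was lower in each, against 22.8%. The 47 were all 35 G2/M members and 12 of the 16 S members. An unadjusted edgeR p under 0.05 was reached by 39 members, all higher in Tubb3-/- mice, against 13.7% of all genes in either direction. The median log2 fold change was 2.05 over G2/M members and 0.55 over S members, beside -0.01 over all 12727 genes tested. The smallest adjusted p was 0.0642, for *Mki67* (edgeR).

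*Mki67*, the gene of the Ki-67 protein that coats mitotic chromosomes, stood at 14.7 and 9.30 CPM in WT endothelial cells and at 65.8 and 59.5 CPM in Tubb3-/- ones, a log2 fold change of 2.46 (SE 0.21). *Top2a*, the topoisomerase that untangles sister chromatids, stood at 28.9 and 17.1 CPM against 106 and 71.6 CPM, a log2 fold change of 2.03 (SE 0.28) with an adjusted p of 0.0677 in edgeR. For both the lower Tubb3-/- mouse lay over 2 times above the higher WT mouse. *Cdk1*, the kinase that drives entry into mitosis, stood at 8.0 and 8.04 CPM against 41.9 and 31.0 CPM. Its cyclins were higher too: *Ccnb1* at 0.889 and 1.26 CPM against 11.1 and 5.74 CPM, and *Ccnb2* at 4.45 and 5.53 CPM against 23.7 and 19.0 CPM. *Ccna2*, the cyclin of S and G2, stood at 2.22 and 4.52 CPM against 16.3 and 13.4 CPM. The Aurora kinases, which build the spindle and correct its attachments, lay at 1.78 and 3.52 CPM against 6.91 and 6.89 CPM (*Aurka*) and at 1.33 and 2.01 CPM against 12.4 and 8.69 CPM (*Aurkb*). *Birc5*, the survivin subunit of the Aurora B complex, stood at 5.78 and 9.05 CPM against 36.0 and 30.5 CPM. *Plk1*, *Ttk*, *Melk* and *Pbk*, 4 further kinases of mitotic cells, were likewise higher in both Tubb3-/- mice, with log2 fold changes from 1.56 (*Melk*) to 2.43 (*Ttk*, which had no UMI in WT replicate 1).

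The spindle checkpoint, which holds anaphase back until chromosomes are attached, and the factors that release it were both higher. *Bub1b*, the checkpoint protein BubR1, stood at 0.445 and 2.26 CPM in WT and 10.1 and 9.84 CPM in Tubb3-/- endothelial cells. *Bub1* had a log2 fold change of 2.05 and *Mad2l1* of 1.09, the smallest of the 35. *Cdc20*, the activator of the anaphase-promoting complex, stood at 7.11 and 2.26 CPM against 22.6 and 19.5 CPM, and *Ube2c*, its ubiquitin-conjugating enzyme, at 13.8 and 17.1 CPM against 70.5 and 51 CPM. Of the kinetochore genes, *Cenpe*, a motor that moves chromosomes to the metaphase plate, stood at 3.11 and 1.26 CPM against 19.4 and 12.3 CPM, a log2 fold change of 3.02 (SE 0.46). *Cenpf* stood at 19.6 and 11.1 CPM against 60.3 and 43.4 CPM, and *Cenpa*, the histone variant of centromeres, at 11.1 and 11.6 CPM against 29.9 and 25.2 CPM. The NDC80 complex subunits *Nuf2*, *Ndc80* and *Spc25*, which grip microtubule ends, had log2 fold changes of 2.45, 1.97 and 1.44.

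Motors and spindle proteins were higher in both Tubb3-/- mice as well. *Kif11*, the motor that pushes spindle poles apart, stood at 5.78 and 3.52 CPM against 19.3 and 10.8 CPM in endothelial cells. *Kif23*, a motor of the central spindle, stood at 3.11 and 3.52 CPM against 22.3 and 14.4 CPM. *Prc1*, which bundles microtubules at the midzone, stood at 12.5 and 11.3 CPM against 63.2 and 35.6 CPM. *Tpx2*, *Nusap1* and *Hmmr*, which organise spindle microtubules, and the motor *Kif20a* had log2 fold changes from 1.65 to 2.18. *Kif2c*, a microtubule depolymerase, had the largest fitted log2 fold change, 4.14, which rests on 0 and 1 UMI in the WT mice against 25 and 17 UMIs. The cytokinesis genes *Anln* and *Ect2* stood at 3.56 and 5.28 CPM against 22.9 and 14.4 CPM, and at 2.67 and 6.53 CPM against 15.7 and 11.5 CPM. *Foxm1*, the factor that drives many of these genes, stood at 1.33 and 1.26 CPM against 9.21 and 6.89 CPM, a log2 fold change of 2.64 (SE 0.42).

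**Figure D2:**
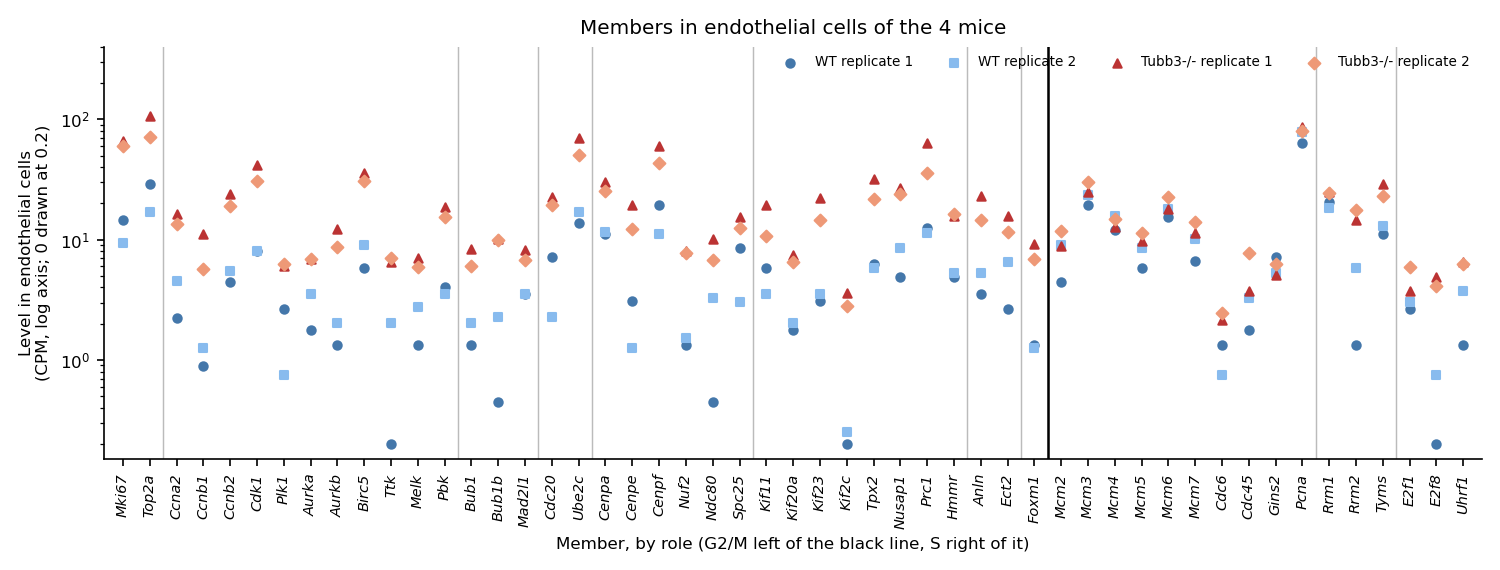
Level of each of the 51 members in endothelial cells in CPM on a log axis (a level of 0 is drawn at 0.2), with a point for each of the 4 mice and members ordered by role; grey lines part the roles and the black line parts G2/M from S members. The red points of Tubb3-/- mice lie above the blue points of WT mice for all 35 G2/M members, whereas for *Mcm2*, *Mcm4*, *Mcm6* and *Gins2* the genotypes overlap.

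The S members were less uniform in endothelial cells. Of the licensing and fork genes *Mcm4*, a subunit of the replicative helicase, stood at 12.0 and 15.6 CPM in WT and 12.8 and 14.9 CPM in Tubb3-/- mice, and *Pcna*, the sliding clamp of DNA polymerases, at 63.1 and 77.9 CPM against 86.2 and 80.8 CPM. *Mcm2*, *Mcm4*, *Mcm6* and *Gins2* overlapped between genotypes, and none of the 10 licensing and fork genes reached an unadjusted p under 0.05 in edgeR. The largest log2 fold changes among them were those of *Cdc6*, the loader of the helicase, at 1.33 and 0.754 CPM against 2.16 and 2.46 CPM, and *Cdc45*, a subunit of the active helicase, at 1.78 and 3.27 CPM against 3.74 and 7.71 CPM. *Rrm1*, the large subunit of ribonucleotide reductase, stood at 20.5 and 18.3 CPM against 25.0 and 24.6 CPM, a log2 fold change of 0.38. *Rrm2*, the regulated subunit of ribonucleotide reductase, in contrast stood at 1.33 and 5.78 CPM against 14.7 and 17.7 CPM, a log2 fold change of 2.01 (SE 0.42). *Tyms*, the thymidylate synthase, stood at 11.1 and 13.1 CPM against 29.2 and 23.0 CPM. *E2f8*, an E2F repressor made late in S phase, was at 0 and 3 UMIs in the WT mice and 34 and 25 UMIs in the Tubb3-/- mice. *Uhrf1*, which maintains DNA methylation at the fork, stood at 1.33 and 3.77 CPM against 6.48 and 6.23 CPM. The activator *E2f1* differed less, at 2.67 and 3.02 CPM against 3.74 and 5.90 CPM.

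In mural cells 45 of the 51 members, and 43 of the 49 tested, were higher in each Tubb3-/- mouse than in either WT mouse, against 21.8% of all genes tested. An unadjusted p under 0.05 was reached by 34 members, all higher, against 11.1% of all genes, with a smallest adjusted p of 0.132 for *Birc5* (edgeR). The median log2 fold change was 1.98 over the 34 G2/M members tested and 0.48 over the 15 S members tested, beside 0.00 over all genes. Over all 49 tested members it was 1.65, and in the whole-cell libraries alone, which held few mural cells, it was 0.60 over the 13 tested there. The G2/M sums in those libraries were 59.5 and 123 CPM against 268 and 142 CPM, and the thinned shares with both *Mki67* and *Top2a* were 0 of 119 cells (which allows up to 2.52%) and 1 of 90 against 2 of 140 and 1 of 84, so a difference in share was not detectable there. *Mki67* stood at 2.75 and 3.67 CPM in WT and at 17.0 and 7.41 CPM in Tubb3-/- mice, and *Top2a* at 3.72 and 3.67 CPM against 23.1 and 10.8 CPM. Tubb3-/- replicate 1 was the higher of the 2 for both genes. *Hmmr*, a spindle and hyaluronan-binding protein, had the largest log2 fold change, 3.48 (SE 0.55), from 0.670 and 0.393 CPM to 8.53 and 4.18 CPM. *Ube2c* stood at 1.56 and 2.36 CPM against 25.2 and 11.3 CPM, *Birc5* at 1.93 and 1.84 CPM against 8.47 and 6.82 CPM, and *Cenpf* at 0.670 and 2.10 CPM against 16.2 and 5.43 CPM. *Anln* was set apart from the other G2/M members in mural cells, at 26.4 and 26.2 CPM against 30.2 in each Tubb3-/- mouse, a log2 fold change of 0.19. Among S members *Pcna* at 65.6 and 61.3 CPM against 62.3 and 54.1 CPM and *Mcm4* at 10.8 and 12.5 CPM against 11.4 and 12.2 CPM overlapped, whereas *Gins2*, a subunit of the active helicase, stood at 2.53 and 1.57 CPM against 4.78 and 4.11 CPM.

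In fibroblasts 39 of the 51 members were higher and 2 lower in each Tubb3-/- mouse than in either WT mouse, against 25.1% of all genes above and 25.9% below. An unadjusted p under 0.05 was reached by 24 members, 20 G2/M and 4 S, all higher, against 18.1% of all genes, and the smallest adjusted p was 0.0884 (edgeR), again for *Mki67*. The median log2 fold change was 0.84 over G2/M members and 0.19 over S members. Over all 50 tested members it was 0.66, and it was 1.92 over the 38 tested in the whole-cell libraries alone and 0.39 over 50 in the enriched libraries alone. Since the filter on low counts passes different members in each lineage and kind of library, partly through the genotype where they are high, no order of mural cells and fibroblasts is drawn from these medians. *Mki67* stood at 3.82 and 3.15 CPM against 9.01 and 8.57 CPM, a log2 fold change of 1.32 (SE 0.20). *Cdk1* stood at 5.73 and 3.08 CPM against 13.7 and 9.73 CPM. *Ube2c* stood at 7.43 and 2.49 CPM against 18.9 and 14.5 CPM, the largest log2 fold change in this lineage at 1.72 (SE 0.46). The 2 members below were *Mcm4*, at 12.9 and 14.3 CPM against 10.4 and 11.8 CPM, and *Rrm1*, at 27.7 and 22.5 CPM against 20.1 and 18.9 CPM. *Mcm5*, another helicase subunit, went the other way, at 1.23 and 1.32 CPM against 2.78 and 3.6 CPM.

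Immune cells showed the module at its highest WT level and a small genotype difference. Haemoglobin genes, a sign of red cell RNA, moved with genotype in these cells, at 46.4 and 31.1 CPM in WT against 498 and 990 CPM in Tubb3-/- mice, and their part in the immune results was not tested. Of the 51 members 17 (of which 8 G2/M and 9 S) were higher in each Tubb3-/- mouse than in either WT mouse, against 20.9% of all genes, 1 was lower, against 19.7%, and no member reached an unadjusted p under 0.05, against 8.36% of all genes. *Mki67* stood at 44.3 and 47.6 CPM in WT and 50.5 and 43.8 CPM in Tubb3-/- mice, and *Cdk1* at 15.8 and 13.4 CPM against 18.3 and 17.0 CPM. *Cenpa* was lower in both Tubb3-/- mice, at 73.9 and 53.0 CPM against 52.0 and 48.1 CPM, and was the only member of which both lay below. The range of log2 fold changes ran from -0.33 (*Cenpa*) to 0.84 (*E2f8*).

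Mesothelial and epithelial cells were few, 72 to 102 per mouse, and their highest G2/M sums came from single mice. In mesothelial cells 15 members passed the filter on low counts. Of the 51 members 13 were higher in each Tubb3-/- mouse than in either WT mouse, 3 of them among the tested ones (against 18.7% of all genes), 1 tested member, *Pcna*, was lower in each (against 19%), and 4 members reached an unadjusted p under 0.05 (against 8.37%). *Top2a* stood at 17.9 and 0.677 CPM in WT mice and 96.7 and 6.43 CPM in Tubb3-/- mice there, so the high value belonged to Tubb3-/- replicate 1. *Ube2c*, at 11.9 and 1.35 CPM against 65.4 and 34.0 CPM, had the smallest adjusted p, 0.126 (edgeR). Fibroblast markers also differed by genotype in mesothelial cells. *Col1a1* stood at 566 CPM in WT against 1710 CPM in Tubb3-/- mice, *Col1a2* at 750 against 1674 and *Lum* at 21.8 against 129. *Dcn* (2601 against 2140 CPM) and *Tcf21* (16.5 against 15.4 CPM) went the other way. The part of this RNA in the mesothelial results was not tested. In epithelial cells 9 of the 51 members had both Tubb3-/- mice above and 2, *Nusap1* and *Gins2*, had both below, mostly at counts under the filter. The filter was passed by 7 members, 1 of which, *Rrm1*, had both Tubb3-/- mice above (18.8 and 30.9 against 13.5 and 9.47 CPM), against 18% of all genes, none of the 7 had both below, against 15.7%, and 1 reached an unadjusted p under 0.05, against 4.26%. The high epithelial G2/M sum came from Tubb3-/- replicate 2 alone, with *Top2a* at 30.2 CPM there and 0.695 to 4.06 CPM in the other mice.

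**Figure D3:**
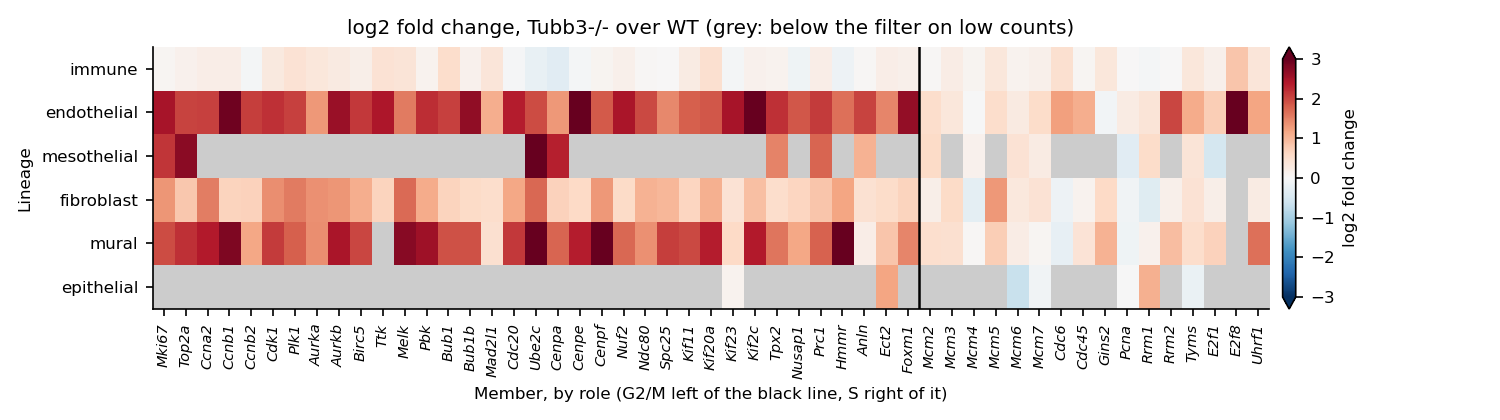
log2 fold change of each member, Tubb3-/- over WT, by lineage (rows) and member in order of role (columns), from the edgeR fits; grey cells were below the filter on low counts. G2/M members are red throughout the endothelial row (median 2.05) and nearly throughout the mural row (median 1.98), paler in fibroblasts (median 0.84) and near white in immune cells (median 0.13), with both kinds of library summed. In the whole-cell libraries alone the medians over all tested members were 0.60 in mural cells and 1.92 in fibroblasts. No order of mural cells and fibroblasts is drawn from the medians.

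Whether the genotype difference itself differs between lineages was tested in a fit over all 24 sums with the mouse as a block. No member was called for a difference between any lineages (0.0172% of all genes called), between endothelial and immune cells (0.0286%), fibroblast and immune cells (0.0802%), endothelial cells and fibroblasts (0.0286%) or mural cells and fibroblasts (0.00573%), and DESeq2 called no member in these comparisons either, beside 1.62%, 0.349%, 0.619%, 0.275% and 0.0344% of all genes. At an unadjusted p under 0.05 edgeR had 17 members for any lineages (8.25% of all genes), 28 for endothelial against immune cells (6.87%), 4 for fibroblast against immune cells (7.28%), 14 for endothelial cells against fibroblasts (6.19%) and 5 for mural cells against fibroblasts (3.31%). The leading member for endothelial against immune cells was *Nusap1*, a nucleolar and spindle protein, whose log2 fold change was larger in endothelial cells by 2.00 (SE 0.43), with an adjusted p of 0.201 in edgeR. For endothelial cells against fibroblasts it was *Kif23*, larger by 1.99 (SE 0.60, adjusted p 0.444 in edgeR).

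The share of cells with UMIs of both *Mki67* and *Top2a* counts cells instead of UMIs. A cell enters it only if RNA of both genes is detected. More dividing cells and more of this RNA per dividing cell are thus not fully told apart by it either. Since deep cells show both genes more readily, each cell was thinned to 2000 UMIs, which left out 122 immune, 89 endothelial, 41 mural, 21 fibroblast, 14 mesothelial and 2 epithelial cells that were shallower. Endothelial cells gave 0.288% (1 of 347 cells) and 0.583% (3 of 515) in WT mice and 2.19% (15 of 685) and 2.81% (18 of 640) in Tubb3-/- mice. The exact 95% intervals, which cover counting error only, were 0.0073 to 1.60%, 0.120 to 1.69%, 1.23 to 3.59% and 1.68 to 4.41%. The difference of means was 2.07 percentage points and the mice of the genotypes did not overlap, with a two-sided exact permutation p of 0.333, the smallest that 4 mice allow. Mural cells gave 0.0791% and 0.125% (1 cell each) against 0.620% (8 cells) and 0.362% (4 cells), without overlap of the mice (exact p 0.333). Fibroblasts gave 0.232% (2 cells) and 0.113% (1 cell) against 0.285% and 0.309% (3 cells each), also at an exact p of 0.333. The mural intervals ran up to 0.440% and 0.695% in WT and down to 0.268% and 0.0987% in Tubb3-/- mice, and the fibroblast intervals of 0.0281 to 0.837% and 0.0029 to 0.630% against 0.0589 to 0.832% and 0.0638 to 0.901% overlapped almost fully, so a fibroblast difference was not detectable at this number of cells. Immune cells gave 1.02% and 1.37% against 1.29% and 1.54%, with overlap (exact p 0.667). In epithelial cells 1.41% of cells in Tubb3-/- replicate 2 and none in the other mice had both genes, which allows shares of up to 3.45 to 3.75% there, and in mesothelial cells 1.39% in replicate 1 of each genotype and none in replicate 2, which allows up to 3.19% and 4.29%. In neutrophils, which have left the cycle, 0 of 197 thinned cells had both genes, which allows a share of up to 1.52%, at a median depth of 3824 UMIs per cell against 7010.5 in endothelial cells without both genes. Pooled over the mice *Mki67* and *Top2a* stood at 4.92 CPM each in neutrophils. By mouse *Top2a* in neutrophils was below the endothelial level of the same mouse in all 4, whereas *Mki67* in WT replicate 2 was at 10.6 CPM in neutrophils against 9.30 CPM in endothelial cells. That neutrophil value rests on 67 cells with a median of 4051 UMIs, and so on few UMIs of *Mki67*. The endothelial value of this mouse rests on 541 cells with a median of 6200 UMIs.

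Without thinning the shares were 0.269%, 0.739%, 4.38% and 3.66% in endothelial cells of WT replicates 1 and 2 and Tubb3-/- replicates 1 and 2, and 3.32%, 2.58%, 3.92% and 3.27% in immune cells. They were 0.314%, 0.371%, 1.54% and 0.894% in mural cells and 0.693%, 0.337%, 1.71% and 1.33% in fibroblasts. Depth moved with genotype in endothelial, mural and fibroblast cells and overlapped in immune cells. The median UMIs per cell were 5630.5 and 6200 in endothelial cells of WT mice against 8115 and 7957 in Tubb3-/- mice, 10158 and 9090.5 against 11606 and 11466 in mural cells, and 16345 and 14686.5 against 19221 and 18336 in fibroblasts. Thinning narrowed the ratio of Tubb3-/- to WT means in both endothelial cells (from 4.02% over 0.504% to 2.50% over 0.435%) and fibroblasts (from 1.52% over 0.515% to 0.297% over 0.173%) and widened it in mural cells (from 1.22% over 0.343% to 0.491% over 0.102%). With the wider criterion of UMIs from 5 or more G2/M members, unthinned, endothelial cells gave 0.269%, 1.11%, 5.79% and 3.97% and immune cells 3.49%, 3.72%, 5.50% and 4.46%, where the immune genotypes did not overlap either. In the whole-cell libraries alone the thinned endothelial shares were 0.344% and 0.752% against 2.46% and 2.91%. In the enriched libraries alone they were 0 of 56 and 0 of 116 cells, which allow up to 5.36% and 2.59%, against 0.870% (1 of 115) and 2.40% (3 of 125), so a difference was not detectable there at this number of cells. Fibroblast values depended on the kind of library. In the whole-cell libraries 0 of 277 and 0 of 300 WT fibroblasts (which allow up to 1.08% and 1.00%) and 0.754% and 0.299% of Tubb3-/- fibroblasts had both genes, with G2/M sums of 46.5 and 44.0 CPM against 283 and 143 CPM. In the enriched libraries the shares overlapped and their mean was lower in Tubb3-/- mice, at 0.342% and 0.172% against 0 of 653 cells (which allows up to 0.459%) and 0.315%, while the G2/M sums were still higher, at 150.3 and 110.0 CPM against 188 and 195 CPM. The thinned share among the cells dropped for several markers was 0.869%, 0.669%, 1.46% and 1.14%, again higher in both Tubb3-/- mice.

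**Figure D4:**
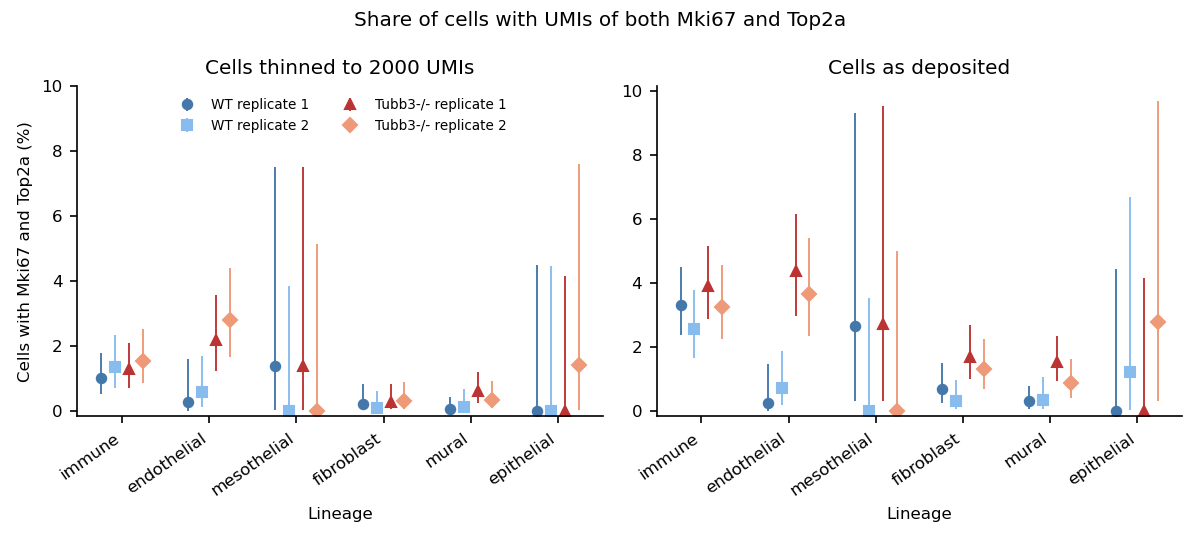
Share of cells (%) with UMIs of both *Mki67* and *Top2a*, by lineage, after thinning to 2000 UMIs (left) and as deposited (right), with a point for each of the 4 mice and exact 95% intervals as lines. Endothelial shares lie at 0.288% and 0.583% in WT and 2.19% and 2.81% in Tubb3-/- mice after thinning, whereas immune shares overlap at 1.02 to 1.54%.

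Within immune cells the dividing cells were spread over several types. Of the 145 with both genes, unthinned, 36 had no type marker and 12 had several, so these could not be given a type. Over the 4 mice, thinned, 2.01% of T cells (*Cd3e*, 18 of 894), 2.30% of alveolar macrophages (*Marco*, 6 of 261) and 1.13% of other monocytes or macrophages (*Csf1r*, 12 of 1064) had both genes. Among NK cells (*Ncr1*) 2 of 190 had both, each of them among the 25 of Tubb3-/- replicate 2. None of 426 thinned B cells (*Cd79a*) had both, which allows a share of up to 0.704%, and unthinned 1 B cell of each Tubb3-/- mouse had. *Mki67* in B cells stood at 6.83 and 7.49 CPM in WT and 27.7 and 52.9 CPM in Tubb3-/- mice. In T cells the 4 mice gave 2.02%, 1.92%, 1.72% and 2.51%. In alveolar macrophages the thinned share was 0 of 50 and 0 of 54 cells in replicate 1 of WT and Tubb3-/-, which allow up to 6.0% and 5.56%, and 3.12% and 4.92% (3 cells each) in replicate 2, so a difference between mice was not detectable in the thinned share at this number of cells. Unthinned, 1 of 50 and 1 of 55 cells in replicate 1 of WT and Tubb3-/- and 8 of 96 and 7 of 61 in replicate 2 had both genes, and *Mki67* stood at 20.6 and 23.8 CPM in replicate 1 and 71.3 and 93.1 CPM in replicate 2, none of which was tested.

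The balance of S against G2/M RNA varied between lineages, and in endothelial, mural and fibroblast cells it was lower in both Tubb3-/- mice. The log2 ratio of summed S to summed G2/M UMIs was -0.63 and -0.70 in WT immune cells and -0.63 and -0.55 in Tubb3-/- ones. In endothelial cells it was -0.15 and 0.26 against -1.69 and -1.19. In mural cells it was 0.96 and 0.80 against -0.81 and -0.13. In fibroblasts it was 0.26 and 0.57 against -0.67 and -0.30. In all of these but immune cells both Tubb3-/- mice lay below both WT mice, with differences of means of -1.49, -1.34 and -0.90. Mesothelial values were 0.39 and 1.5 against -1.88 and 0.36, and epithelial values 0.59 and 1.36 against 1.04 and -0.69. As a score over the members the ratio was given no test. It was taken over all cells of a lineage. A larger share of dividing cells and another balance within dividing cells therefore cannot be told apart from it.

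The sums were also split by where their UMIs lie. In endothelial cells 88% of all G2/M member UMIs but 28.5% of S member UMIs came from the 60 cells with both *Mki67* and *Top2a*, which hold 4.90% of all UMIs. These values pool genotypes that differ, since 55 of the 60 cells were from Tubb3-/- mice. By genotype the G2/M share was 66.3% in WT and 90.5% in Tubb3-/- mice, and the S share 5.58% and 36.6%. The G2/M shares include *Mki67* and *Top2a*, so they follow in part from the choice of cells. Leaving aside those 2 genes, which chose the cells, the median member had 87.5% of its UMIs there among the other 33 G2/M members and 32.6% among the 16 S members. *Nuf2* had 96.4% and *Rrm2* 90.3% of their UMIs in these cells, *Tyms* 36.2%, *Pcna* 18.5% and *Mcm4* 11.5%. *Rrm2* and *E2f8* (95.2%) thus lay among the G2/M members by this measure. The medians were 82.6% and 44.0% in immune cells, 69.1% and 19.8% in mural cells and 65.0% and 17.4% in fibroblasts, all over the 4 mice together. In mural cells, where 30 of the 37 cells with both genes were from Tubb3-/- mice, 12.4% of G2/M UMIs (*Mki67* and *Top2a* included) lay in them in WT against 73.3% in Tubb3-/- mice, so the pooled mural median describes mainly the latter. *Anln* was the lowest G2/M member in mural cells with 13.5%, at 25.2 CPM in mural cells without both genes against 2.02 CPM in such endothelial cells. *Cenpa* was the lowest in immune cells with 22.9%, at 47.5 CPM in immune cells without both genes.

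**Figure D5:**
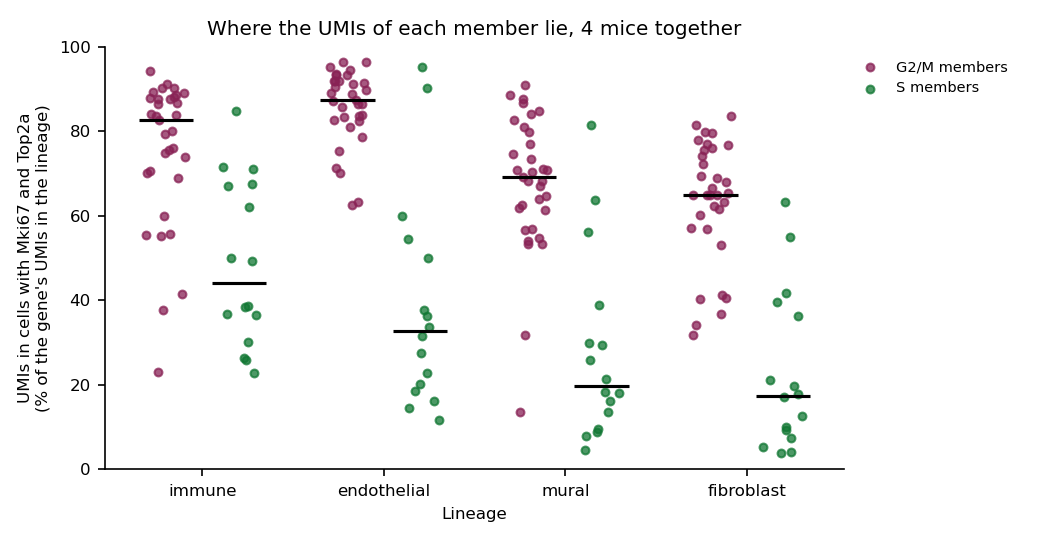
Share (%) of each member's UMIs that lie in cells with both *Mki67* and *Top2a*, in immune, endothelial, mural and fibroblast cells, 4 mice together, with a point per member (33 G2/M members without *Mki67* and *Top2a*, and 16 S members) and a bar at the median. Medians are 87.5% for G2/M and 32.6% for S members in endothelial cells, and the lowest G2/M members in these 4 lineages are *Anln* in mural cells (13.5%) and *Cenpa* in immune cells (22.9%), the latter followed by *Bub1b* (37.7%) and *Kif23* (41.5%).

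Taking out the cells with both genes leaves less of the module by construction, so the values of the remaining cells are a description only. In endothelial cells without both genes the 33 other G2/M members summed to 58.2 and 56.7 CPM in WT and 64.0 and 65.9 CPM in Tubb3-/- mice, and the S members to 168 and 206 CPM against 182 and 192 CPM. In mural cells without both genes the G2/M sums were 63.1 and 72.5 CPM against 61.1 and 67.5 CPM, which overlap. In fibroblasts they were 45.0 and 45.4 CPM against 77.6 and 46.2 CPM. Within the endothelial cells that had both genes the level of the 33 members was 14338 CPM (1 cell) and 8107 CPM (4 cells) in WT mice and 8741 CPM (31 cells) and 7257 CPM (24 cells) in Tubb3-/- mice, which overlap. In mural cells it was 2463 CPM (4 cells) and 754 CPM (3 cells) against 6434 CPM (20 cells) and 4910 CPM (10 cells), without overlap, and in fibroblasts 5839 and 4935 CPM against 5113 and 5299 CPM overlapped. The S members in endothelial cells with both genes summed to 1114 and 1111 CPM in WT and 1361 and 1652 CPM in Tubb3-/- mice. In such mural cells they summed to 2160 and 206 CPM against 1478 and 1467 CPM, which overlap. In such fibroblasts 778 and 1345 CPM against 1077 and 933 CPM overlapped too. The cells with both genes were not uniform in lineage markers. The 55 from Tubb3-/- mice held the endothelial markers (*Pecam1*, *Cldn5*, *Egfl7*, *Tie1*, *Ramp2*) at 4730 CPM and the fibroblast markers at 198 CPM, whereas the 5 from WT mice held them at 2017 and 3065 CPM. In mural cells, the 30 dividing cells of Tubb3-/- mice held the mural markers (*Cox4i2*, *Ndufa4l2*, *Notch3*, *Kcnj8*, *Cnn1*) at 721 CPM and the fibroblast markers at 6176 CPM, against 1582 and 4316 CPM in the other mural cells of these mice. The 7 of WT mice held them at 1092 and 2911 CPM, and the immune markers at 634 CPM against 17.8 CPM in the other WT mural cells. The part of this fibroblast and immune RNA in the mural difference was not tested.

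Other cell cycle genes from lists outside the module were counted the same way. In endothelial cells 25 of 25 tested further G2/M genes had a higher level in Tubb3-/- mice by log2 fold change, 19 of them at an unadjusted p under 0.05, with a median of 1.16. Over all genes 48.9% were higher and 13.7% reached that threshold. Of 19 further S-phase genes 17 were higher, 5 reached it in either direction, and the median was 0.28. Of 29 genes of G1 cyclins, kinases, E2F, Rb and DREAM proteins 21 were higher, 7 reached it in either direction, and the median was 0.34. In mural cells the medians were 0.52, 0.23 and 0.06, in fibroblasts 0.48, 0.00 and 0.17, and in immune cells 0.10, 0.06 and 0.01. edgeR called no gene of these lists in these 4 lineages at an adjusted p under 0.05.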

How the data were processed

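The authors aligned reads of 3' single-cell libraries to mm10 with an added Cre sequence using Cell Ranger 7.1.0, and deposited raw UMI counts per gene and cell, split into 8 libraries by their tags. Antisense or overlapping partners share the locus of some members, and 4 members have named pseudogenes, so their counts are less certain. Cells with under 200 or over 7500 genes or over 15% mitochondrial UMIs were removed, as in the study's methods, and 802 Scrublet doublets (scanpy 1.11.5, per pool). The mural and other cell names rest on a rebuilt rule (1 or more marker UMIs, cells matching several markers dropped), not on the study's clusters. UMIs were summed per mouse and lineage over both libraries. CPM is per 1000000 gene UMIs of that sum.

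Sums were tested with edgeR 4.0.16 (filterByExpr, TMM, quasi-likelihood F test, R 4.3.3), 2 against 2 mice, with p-values adjusted by Benjamini-Hochberg across every tested gene and a threshold of 0.05. The SE is derived from the same fit. On simulated data for these designs 25 to 69.89% of genes changed by 1 log2 unit and 88.3 to 98.98% of those changed by 2 were recovered, 25% and 88.3% of them in the epithelial design and 69.89% and 92.86% in the endothelial one. The simulation gave all genes of a lineage the same dispersion and changed genes drawn from all that passed the filter. It therefore does not tell how often the members, many of them at low counts in few cells, would be recovered. Shares used an exact permutation test over mice (scipy 1.17.1). Alternatives were DESeq2 1.42.0, no filter, doublets kept, no upper limit on genes, 2 or more marker UMIs, each kind of library alone, a replicate block and leaving out each mouse. Assigning cells by a leading marker (at least 2 times the UMIs of the next) was added after the data were seen. The members and lists were chosen with earlier results of these data known. Genes named were all members, those leading a group, *Tubb3* and markers; of the other cell cycle lists only called genes could be named, and there were none. Promoters came from RefSeq (GRCm38.p6).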

Additional observations from a re-analysis of the deposited data

Results flagged for a closer look

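A group of results was singled out because every mouse of one lineage differed one way and every mouse of another lineage the other way; none of these differences between a pair of lineages was tested. The log2 ratio of S to G2/M UMIs was lower in both Tubb3-/- mice in endothelial, mesothelial, mural and fibroblast cells and higher in both in immune cells, and the genotype difference minus that in immune cells was -1.57 in endothelial, -1.78 in mesothelial, -1.42 in mural and -0.98 in fibroblast cells. The mesothelial genotype difference ranged from -2.82 to -0.59 when 1 mouse was left out. Without an upper limit on genes the mesothelial mice overlapped, at 0.42 in Tubb3-/- replicate 2 and 0.39 in WT replicate 1. In immune cells that difference was itself small, 0.07, and turned to -0.06 when cells were assigned by their leading marker.

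Among single members, the log2 fold change of *Cenpa* was larger by 2.66 in mesothelial and by 2.07 in mural cells than in immune cells, where both Tubb3-/- mice were lower. The log2 fold change of *Pcna* in mesothelial minus that in endothelial cells was -0.59, and that of *Rrm1* in fibroblast minus that in epithelial cells was -1.44. These pairs of lineages were not tested; the edgeR test for a difference between any of the 6 lineages gave an adjusted p of 0.295 for *Cenpa*, 0.808 for *Pcna* and 0.492 for *Rrm1*.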

How the results depend on the processing

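edgeR's count of members called depended on the settings in most lineages, and DESeq2, 2 or more marker UMIs, the leading marker and the enriched libraries alone gave 22, 24, 23 and 2 in endothelial cells, beside 0.959%, 0.816%, 0.47% and 0.259% of all genes. Without the filter on low counts the calls were 37 in endothelial, 32 in mural, 18 in mesothelial and 1 in epithelial cells, beside 4.3%, 3.64%, 1.76% and 0.816% of all genes. DESeq2 gave 14 in mural (1.14% of all genes) and 5 in fibroblast cells (3.42%), the leading marker 4 in mural cells (0.367%) and 2 or more marker UMIs 1 in mesothelial cells (0.355%). Leaving out 1 mouse gave 5 to 21 calls in endothelial, 0 to 17 in mural, 0 to 12 in fibroblast and 0 to 21 in mesothelial cells (over 15 to 36 members tested), 0 to 1 for differences between lineages and 0 to 1 between fibroblast and immune cells. The fits with 1 call between lineages, each without a WT mouse, called 1.9% and 0.488% of all genes, and that between fibroblast and immune cells 0.941%. The cause was not tested. Of the members with an unadjusted p under 0.05, *Top2a* in mesothelial cells alone turned its direction, with leave-one-out log2 fold changes from -0.41 (without Tubb3-/- replicate 1) to 6.06 (without WT replicate 1). The thinned share in fibroblasts turned to -0.0997 percentage points in the enriched libraries alone. The S to G2/M difference in immune cells turned to -0.0597 with the leading marker and to -0.16 in the enriched libraries alone. That in epithelial cells, -0.80 with overlap of the mice, turned to 0.08 with the leading marker and 0.07 without Tubb3-/- replicate 2. In endothelial cells it was -1.88 with 2 or more marker UMIs and -1.90 in the enriched libraries. In fibroblasts it was -2.10 in the whole-cell and -0.51 in the enriched libraries.

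WT and Tubb3-/- mice share replicate numbers 1 and 2, but nothing in the labels says that a number marks a shared litter or day. Deviations of same-numbered mice from their group means correlated across genes at 0.07 (epithelial) to 0.31 (fibroblast), and genes are not independent. With a replicate block edgeR called 4 members in endothelial, 22 in mural, 19 in fibroblast, 5 in mesothelial and 0 in immune and epithelial cells, beside 0.11%, 3.99%, 10.6%, 2.89%, 0.163% and 0% of all genes. The tests between lineages have a term per mouse, which takes up an effect of the replicate number only as far as all lineages share it, and with genotype in its place (no replicate block) they also called 0 members.

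Precision is limited by 2 mice a group, by 1 to 31 dividing cells per mouse in endothelial cells, and by cells of several markers, which hold most cells with both *Mki67* and *Top2a*. Intervals and limits cover counting error only.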

Other observations

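Cells that the limits removed also held members. Of 59 WT and 216 Tubb3-/- cells with over 7500 genes and within the mitochondrial limit, 7 (11.9%) and 58 (26.9%) had UMIs of both *Mki67* and *Top2a*, against 1.84% of 13610 and 3.14% of 16448 kept cells. By the rule 0 of these WT and 12 of these Tubb3-/- cells were fibroblasts, 3 of them with both genes. With no upper limit on genes the fibroblast G2/M sums were 121 and 87.3 CPM in WT and 236 and 243 CPM in Tubb3-/- mice. The median log2 fold change over the 50 members tested in fibroblasts was then 0.87. Among Scrublet doublets 2 of 368 WT and 12 of 434 Tubb3-/- cells had both.

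Red cell RNA varied between mice of both genotypes in endothelial cells, whereas in immune cells it moved with genotype. Haemoglobin genes stood at 38.2 and 4587 CPM in endothelial cells of WT mice and at 1386 and 33.1 CPM in those of Tubb3-/- mice, and their part in the endothelial results was not tested.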
